A study of Rattus norvegicus with 24 samples.

Results

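Collagens were followed across nasal tissue and white blood cells of rats that inhaled formaldehyde. A gene was taken as a member where a probe set carried exactly 1 gene symbol of the form Col, number, a, number, and the probe set with the highest mean over the nasal arrays stood for the gene. This gave 25 genes from 27 probe sets, out of 14506 genes with a symbol of their own on the array. Of these, 10 were fibrillar collagens, 3 were basement membrane collagens and 12 were other collagens. A further 19 collagen genes of the RefSeq gene table, Col4a2 and Col6a1 to Col6a3 among them, matched no such probe set and were not analysed here.

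The study exposed male Fischer rats, about 8 weeks old at the start, to 2 ppm formaldehyde vaporized from labelled paraformaldehyde, nose only, for 6 hours a day over 7 or 28 days. Control rats sat in the same kind of tube with room air for as long. Nasal epithelium was taken from the maxilloturbinate and white blood cells were isolated from heart blood, and the biotin-labelled RNA of each was measured on Affymetrix arrays. The 8 groups were exposed and control nose at 7 days, exposed and control nose at 28 days, and the same 4 groups in blood. Each group had 3 arrays, which limits the precision of every value. No label says that replicates came from separate animals, so a p-value here speaks of the spread among these samples, which may be technical.

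Collagens are triple helices of long chains that form the main protein scaffold of connective tissue. Fibrillar collagens such as type I and type III are made mostly by fibroblasts and assemble into fibrils of the lamina propria under the epithelium. Type IV forms the sheet of the basement membrane, and types VII and XVII tie epithelial basal cells to it. In some types, such as type I, the chains of 1 molecule are encoded by separate genes. The type IV genes lie in head-to-head pairs that share the stretch between their starts.

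Sequence upstream of the gene start was at hand for 20 of the 25 members (250 bases before the start, RefSeq, build GRCr8), but not for Col3a1 or Col1a1. The stretch shared by Col4a1 and Col4a2 and the windows of Col17a1 and Col1a2 are shown because the nasal results turn on Col4a1 and Col17a1 and because Col1a2 followed Col1a1 from array to array. Capitals mark the motifs that were searched on both strands, which were the CCAAT box (CCAAT or ATTGG), the GC box (GGGCGG or CCGCCC) and the TATA box (TATAAA or TTTATA). The first is the whole gap of 76 bases between the starts of the type IV pair on chromosome 16, chr16:84885521-84885596, read on the plus strand. The second lies on chromosome 1, chr1:256518858-256519107, on the minus strand, and the last lies on chromosome 4, chr4:33518307-33518556, on the plus strand.
Col4a1 and Col4a2 gap: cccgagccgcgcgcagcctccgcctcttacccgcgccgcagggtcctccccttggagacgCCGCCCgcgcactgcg
Col17a1 upstream: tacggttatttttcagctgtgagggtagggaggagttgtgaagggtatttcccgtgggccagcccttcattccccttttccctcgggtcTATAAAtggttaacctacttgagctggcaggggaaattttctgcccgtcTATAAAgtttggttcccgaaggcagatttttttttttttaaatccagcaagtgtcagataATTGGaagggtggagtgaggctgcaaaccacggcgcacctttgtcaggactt
Col1a2 upstream: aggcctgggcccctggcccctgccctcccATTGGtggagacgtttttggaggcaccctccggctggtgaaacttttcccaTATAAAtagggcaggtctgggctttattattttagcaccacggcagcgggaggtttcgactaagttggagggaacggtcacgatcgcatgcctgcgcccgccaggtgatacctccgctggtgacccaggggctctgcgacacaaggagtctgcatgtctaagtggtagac

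The type IV gap held 1 GC box and none of the other motifs. The Col17a1 window held 2 TATA boxes and 1 CCAAT box, and the Col1a2 window held 1 of each. Among the 20 members with a window, 7 held a CCAAT box, 11 a GC box and 4 a TATA box. The shares over all 27457 promoter windows of that length were 34.3% for the CCAAT box, 32.4% for the GC box and 13.1% for the TATA box. A match is a stretch of letters and not a measured site.

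The tissue labels were checked against defining markers. Epcam, Cdh1, Krt8 and Krt18, which mark epithelium, lay higher on each of the 12 nasal arrays than on any blood array, and so did Foxj1, which marks ciliated cells. Ptprc, Cd53 and Coro1a, which mark white blood cells, lay higher on each blood array than on any nasal array. The platelet gene Pf4 had log2 intensities of 11.81 to 13.31 in blood, so the blood samples also held platelet RNA. The 7 and 28 day arrays lay on different scales, with medians of 7.35 to 7.42 in nose at 28 days and of 8.26 to 8.28 in nose at 7 days. Control replicate 1 of nose at 28 days stood apart from its group, with a mean of 7.43 over 13 olfactory neuron markers against 9.46 and 9.73 in the other control arrays. At 7 days, control replicate 1 of nose had an olfactory mean of 8.88, against 10.18 and 9.97 in the other controls, and exposed replicate 1 had an epithelial marker mean of 10.34, against 10.93 and 10.95 in the other exposed arrays. Collagen calls and list counts in the nose are also given without the array concerned. In bulk tissue, fewer cells of a type and less RNA per cell cannot be told apart.

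The first comparison asked which collagens belong to the nasal tissue at all, with unexposed nose set against unexposed blood at 7 days. All 25 members had a higher deposited intensity in nose than in blood, where 61.9% of all probe sets tested did so. The median over all probe sets was itself 0.48 higher in nose on the log2 scale, so the scaling of the arrays decides the sign for members near that shift. By that measure 13 members stood more than 2-fold higher in nose, and these stayed higher under quantile normalization and under centring on the array median.

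The members furthest above blood were the chains of the connective tissue fibrils and the proteins that coat them. Col12a1, a fibril-associated collagen, had log2 intensities of 10.32, 10.29 and 10.49 in control nose, against 6.18, 6.21 and 6.25 in control blood. The difference was 4.16 ± 0.09 (limma, adjusted p = 2.06e-19), and 3.40 after quantile normalization. The type I chains Col1a2 and Col1a1 differed by 3.82 ± 0.18 and 3.80 ± 0.22, and the fibril-associated Col14a1 by 3.14 ± 0.11. Col3a1, the chain of type III fibrils that mix with type I, differed by 2.86 ± 0.13, and Col8a1, a short network collagen found around vessels, by 2.77 ± 0.13. These 6 kept differences of 1.88 or more under both scalings.

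The basement membrane and attachment collagens stood closer to blood. Col4a1 was 1.70 higher in nose, Col7a1, the chain of the anchoring fibrils, was 1.36 higher, and Col17a1, the transmembrane collagen of hemidesmosomes, was 1.23 higher. The fibrillar chains Col5a2, Col5a1 and Col11a1 were 1.78, 1.38 and 1.17 higher, and the transmembrane Col23a1 was 1.36 higher. The remaining 12 members differed by 0.33 to 0.94 as deposited. Of these, 5 passed the limma test as lower in nose after quantile normalization (Col6a4, Col11a2, Col4a3, Col4a4 and Col9a2), where 40.1% of all probe sets did. After median centring 6 passed as lower, where 52.9% of all probe sets did. For these 12 members the signal on the nasal arrays was therefore near the level on blood arrays. The side on which it fell depended on the scaling, except for Col2a1, Col16a1 and Col27a1, which stayed above 0. Col2a1 of cartilage differed by 0.86 as deposited and by 0.07 after quantile normalization.

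**Figure D1:**
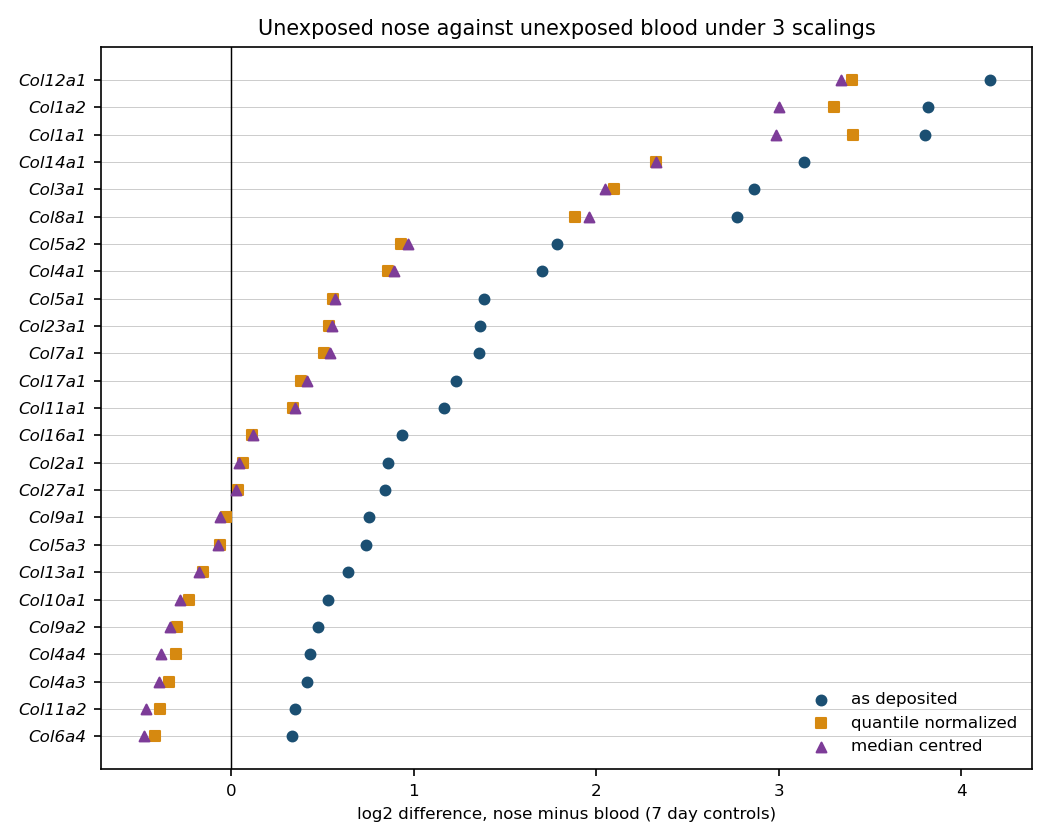
Each row is 1 collagen, and the points give its log2 difference of control nose minus control blood at 7 days as deposited, after quantile normalization and after median centring. The upper 13 rows lie to the right of 0 under all 3 scalings, and of the lower 12 rows 9 cross 0 once the arrays are rescaled.

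At 7 days of exposure, 3 collagens fell in the nose and none rose. They were Col3a1 of the fibrils, Col4a1 of the basement membrane and Col17a1 of the hemidesmosome, 1 from each class. The share was 3 of 25 members, and 7.84% of all probe sets tested passed as lower, so the count of collagens was near the background. The differences of 21 of the 25 members lay below 0, against 60.4% of all probe sets, and their median was −0.17 against −0.05 over all probe sets. At an unadjusted p under 0.05 there were 8 members of 25, against 30.4% of all probe sets.

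Col3a1 (Entrez gene 84032, chromosome 9) had log2 intensities of 9.04, 9.40 and 9.60 in exposed nose, against 9.98, 9.89 and 10.01 in control nose. Every exposed array lay below every control array, and the exposed arrays were spread more widely. The means were 9.35 ± 0.28 in exposed and 9.96 ± 0.06 in control nose (SD, n = 3 each). The difference of −0.62 ± 0.17 is a level that fell by 34.8% (limma, adjusted p = 0.0306, 95% interval −0.98 to −0.25).

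Col4a1 (Entrez gene 290905, chromosome 16) encodes a chain found in nearly all basement membranes, those of epithelium and of capillaries alike. It had 8.55, 8.45 and 8.68 in exposed nose, against 9.01, 8.91 and 9.01 in control nose. The groups did not overlap, and the difference of −0.42 ± 0.10 is a level that fell by 25.2% (limma, adjusted p = 0.0214, 95% interval −0.64 to −0.19).

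Col17a1 (Entrez gene 294027, chromosome 1) is made by basal epithelial cells. It had 8.13, 8.20 and 8.35 in exposed nose, against 8.61, 8.59 and 8.60 in control nose. The 3 control arrays nearly coincided (SD 0.01), and all exposed arrays lay below them. The difference of −0.37 ± 0.08 is a level that fell by 22.7% (limma, adjusted p = 0.0144, 95% interval −0.55 to −0.20).

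The 3 calls rested on few arrays. Without control replicate 1, which stood apart in its olfactory markers, or without exposed replicate 1, which stood apart in its epithelial markers, no collagen passed the limma test, although all 3 differences stayed below 0. The share of all probe sets that passed as lower also fell, to 1.15% without that control array and 1.43% without that exposed array. Leaving out each array in turn, Col3a1 ran from −0.74 to −0.46 and kept its call in 1 of 6 fits, Col4a1 from −0.48 to −0.36 with 2 of 6, and Col17a1 from −0.44 to −0.32 with 4 of 6.

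The type I chains were not among those called. Col1a1 had 11.43, 11.75 and 12.07 in exposed nose, against 11.67, 11.75 and 12.35 in control nose, and Col1a2 had 10.98, 11.24 and 11.60 in exposed nose, against 11.25, 11.33 and 11.89 in control nose. The groups overlapped for both chains. The differences were −0.17 ± 0.28 for Col1a1 (95% interval −0.78 to 0.44) and −0.22 ± 0.23 for Col1a2 (95% interval −0.72 to 0.29), so a fall as large as that of Col3a1 lies within the interval of each. Leaving out each array in turn, Col1a1 ran from −0.33 to 0.04, its highest without control replicate 3, and Col1a2 from −0.38 to −0.02.

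The type V chains, which are built into type I fibrils and limit their width, came closest to the threshold among the other fibrillar members. Col5a1 had 8.50, 8.59 and 8.79 in exposed nose, against 8.75, 8.89 and 9.05 in control nose (−0.27 ± 0.10, limma adjusted p = 0.0851). Col5a2 had 8.60, 8.54 and 8.76 in exposed nose, against 8.79, 8.81 and 9.09 in control nose (−0.27 ± 0.10, limma adjusted p = 0.102). The groups overlapped for Col5a1 and not for Col5a2. Col2a1, the fibrillar chain of cartilage, had 8.41, 8.47 and 8.74 in exposed nose, against 8.64, 8.75 and 8.80 in control nose, with overlap. The other fibrillar members, Col5a3, Col11a1, Col11a2 and Col27a1, differed by −0.18 to 0.04, and none passed.

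Among the basement membrane members only Col4a1 passed, where Col4a3 and Col4a4, the chains best known from the kidney glomerulus, did not. Col4a3 had 7.57, 7.77 and 7.88 in exposed nose, against 7.78, 7.89 and 7.92 in control nose, a difference of −0.12 ± 0.11 that ran from −0.19 to −0.04 with 1 array left out. Col4a4 had 7.35, 7.27 and 7.42 in exposed nose, against 7.39, 7.53 and 7.54 in control nose, a difference of −0.14 ± 0.07. Both sets overlapped, and both genes were near the blood level in the tissue comparison.

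Among the other collagens, the anchoring fibril chain Col7a1 had 8.45, 8.52 and 8.61 in exposed nose, against 8.63, 8.76 and 8.78 in control nose. The groups did not overlap, and the difference of −0.20 ± 0.08 did not pass (limma, adjusted p = 0.11). Col16a1, a fibril-associated collagen, had 8.21, 8.27 and 8.35 in exposed nose, against 8.47, 8.46 and 8.49 in control nose (−0.20 ± 0.07, limma adjusted p = 0.0833). Col13a1, a transmembrane collagen, had 7.77, 7.83 and 8.00 in exposed nose, against 8.07, 8.02 and 8.17 in control nose (−0.22 ± 0.08, limma adjusted p = 0.0839). Neither of these sets overlapped. The remaining 8 members of the class differed by −0.23 to 0.04. In all, 8 of 25 members had exposed arrays wholly below control arrays, against 32.4% of all probe sets.

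Col12a1 and Col11a1, both more than 2-fold higher in nose than in blood, were among the 4 members above 0, each with a difference of 0.04. The 95% interval of Col12a1 was −0.20 to 0.27, so a fall of the size of Col3a1 lies outside it. Col6a4 was the only member with several probe sets. The chosen set differed by 0.04, a second by −0.15, and the third did not pass the filter on dim probe sets.

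**Figure D2:**
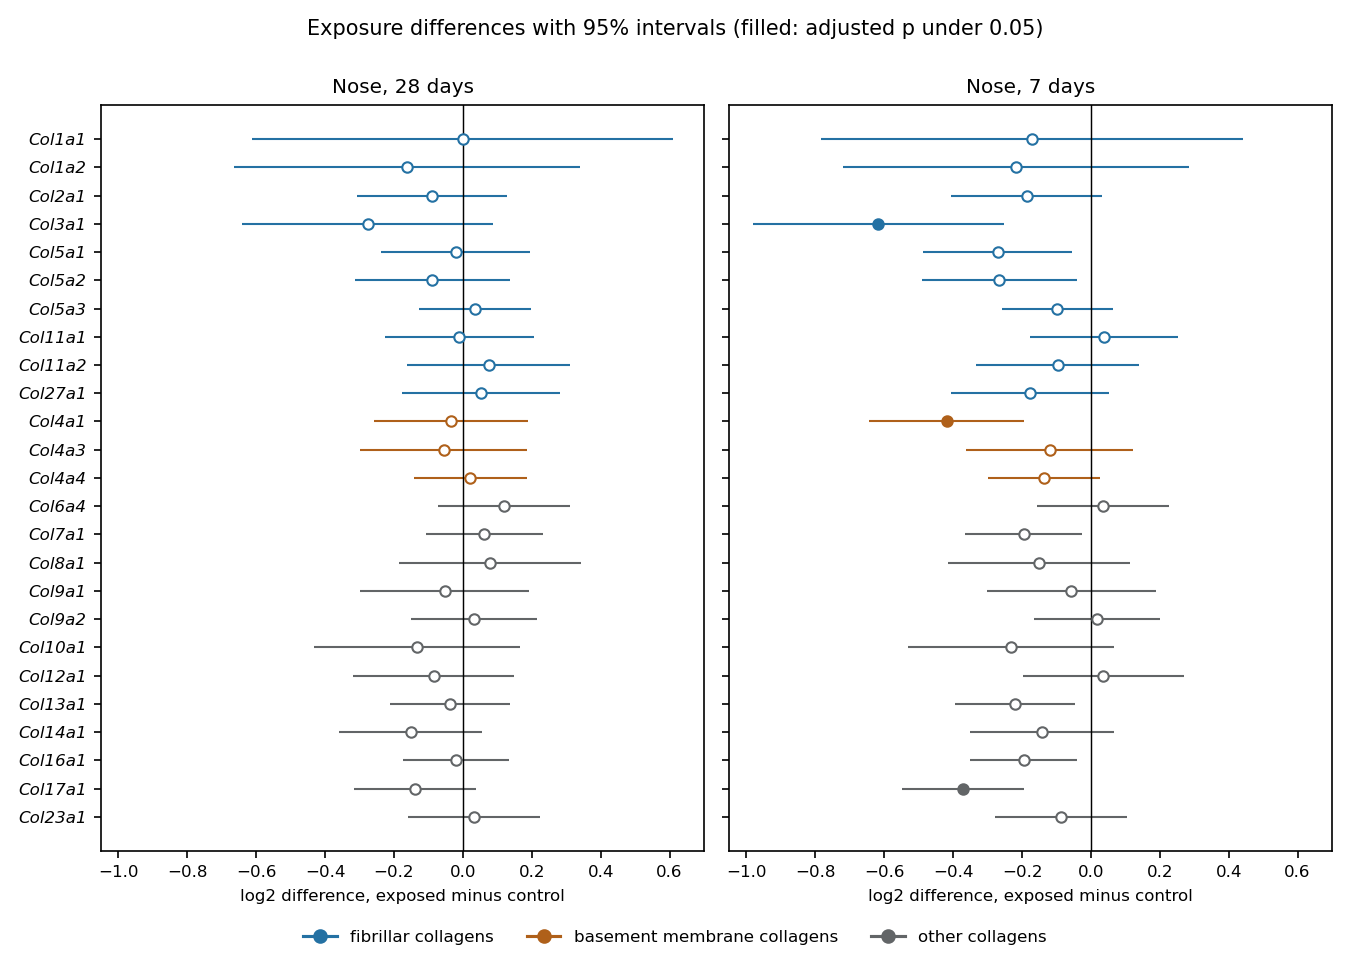
Points are log2 differences of exposed minus control nose for the 25 collagens at 28 days (left) and 7 days (right), with 95% intervals from limma, coloured by class and filled where the adjusted p was under 0.05. The 3 filled points, Col3a1, Col4a1 and Col17a1, are all at 7 days and left of 0, and the widest intervals are those of Col1a1 and Col1a2.

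At 28 days of exposure none of the 25 collagens passed the limma test, and 0 had an unadjusted p under 0.05, against 15.4% of all probe sets. Only 0.00456% of all probe sets passed at this day. The median difference of the members was −0.02, against 0.01 over all probe sets, and 16 of 25 lay below 0, against 47.3% of all probe sets. The range was −0.28 for Col3a1 to 0.12 for Col6a4. None of the collagens passed without control replicate 1 either, where 4.93% of all probe sets then did. Their differences ran from −0.24 for Col10a1 to 0.30 for Col1a1 in that fit, with a median of −0.01 and 14 below 0.

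Col3a1 had 8.48, 8.34 and 8.48 in exposed nose, against 9.09, 8.55 and 8.49 in control nose. The groups did not overlap, though the margin was narrow, and control replicate 1 was far above the other controls. The difference was −0.28 ± 0.17 (95% interval −0.64 to 0.09), and −0.09 ± 0.14 without that array. Col17a1 had 7.77, 7.74 and 7.75 in exposed nose, against 8.02, 7.83 and 7.82 in control nose, a difference of −0.14 ± 0.08, and −0.07 ± 0.08 without control replicate 1. Col4a1 had 7.93, 7.65 and 7.81 in exposed nose, against 8.01, 7.75 and 7.74 in control nose, with overlap. Its difference was −0.03 ± 0.10, and 0.05 ± 0.10 without control replicate 1.

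Col1a1 had 10.24, 10.10 and 10.46 in exposed nose, against 10.88, 10.18 and 9.74 in control nose, so the controls reached both above and below the exposed arrays. Its difference of −0.001 ± 0.28 became 0.30 ± 0.24 without control replicate 1 (limma, adjusted p = 0.47). Col1a2 had 9.78, 9.84 and 10.02 in exposed nose, against 10.49, 9.93 and 9.70 in control nose, and its difference of −0.16 ± 0.23 became 0.06 ± 0.21. Without that array both chains lay above 0, and their 95% intervals at 28 days reached from −0.61 to 0.61 for Col1a1 and from −0.66 to 0.34 for Col1a2 with it.

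Col14a1 had 8.29, 8.34 and 8.34 in exposed nose, against 8.47, 8.43 and 8.53 in control nose, without overlap (−0.15 ± 0.09, limma adjusted p = 0.463). Col6a4, which belongs to the type VI family of beaded filaments, had 7.34, 7.44 and 7.61 in exposed nose, against 7.28, 7.31 and 7.45 in control nose, with overlap (0.12 ± 0.09). Col7a1 had 7.88, 7.83 and 7.91 in exposed nose, against 7.91, 7.75 and 7.78 in control nose, with overlap (0.06 ± 0.08). None of these 3 genes passed. Col5a2 had 7.67, 7.72 and 7.81 in exposed nose, against 7.84, 7.70 and 7.91 in control nose, and Col2a1 had 7.83, 7.87 and 8.04 in exposed nose, against 8.01, 7.95 and 8.05 in control nose, each with a difference of −0.09. The basement membrane chain Col4a3 had 7.17, 7.21 and 7.25 in exposed nose, against 7.22, 7.09 and 7.49 in control nose, a difference of −0.06. Its neighbour Col4a4 had 7.10, 7.08 and 7.17 in exposed nose, against 7.04, 7.08 and 7.17 in control nose, a difference of 0.02. All 4 of these overlapped. The differences without control replicate 1 were −0.15 for Col14a1, 0.08 for Col6a4, 0.11 for Col7a1, −0.08 for Col5a2, −0.09 for Col2a1, −0.08 for Col4a3 and −0.01 for Col4a4. Exposed arrays lay wholly below control arrays for 3 of 25 members, against 8.7% of all probe sets.

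**Figure D3:**
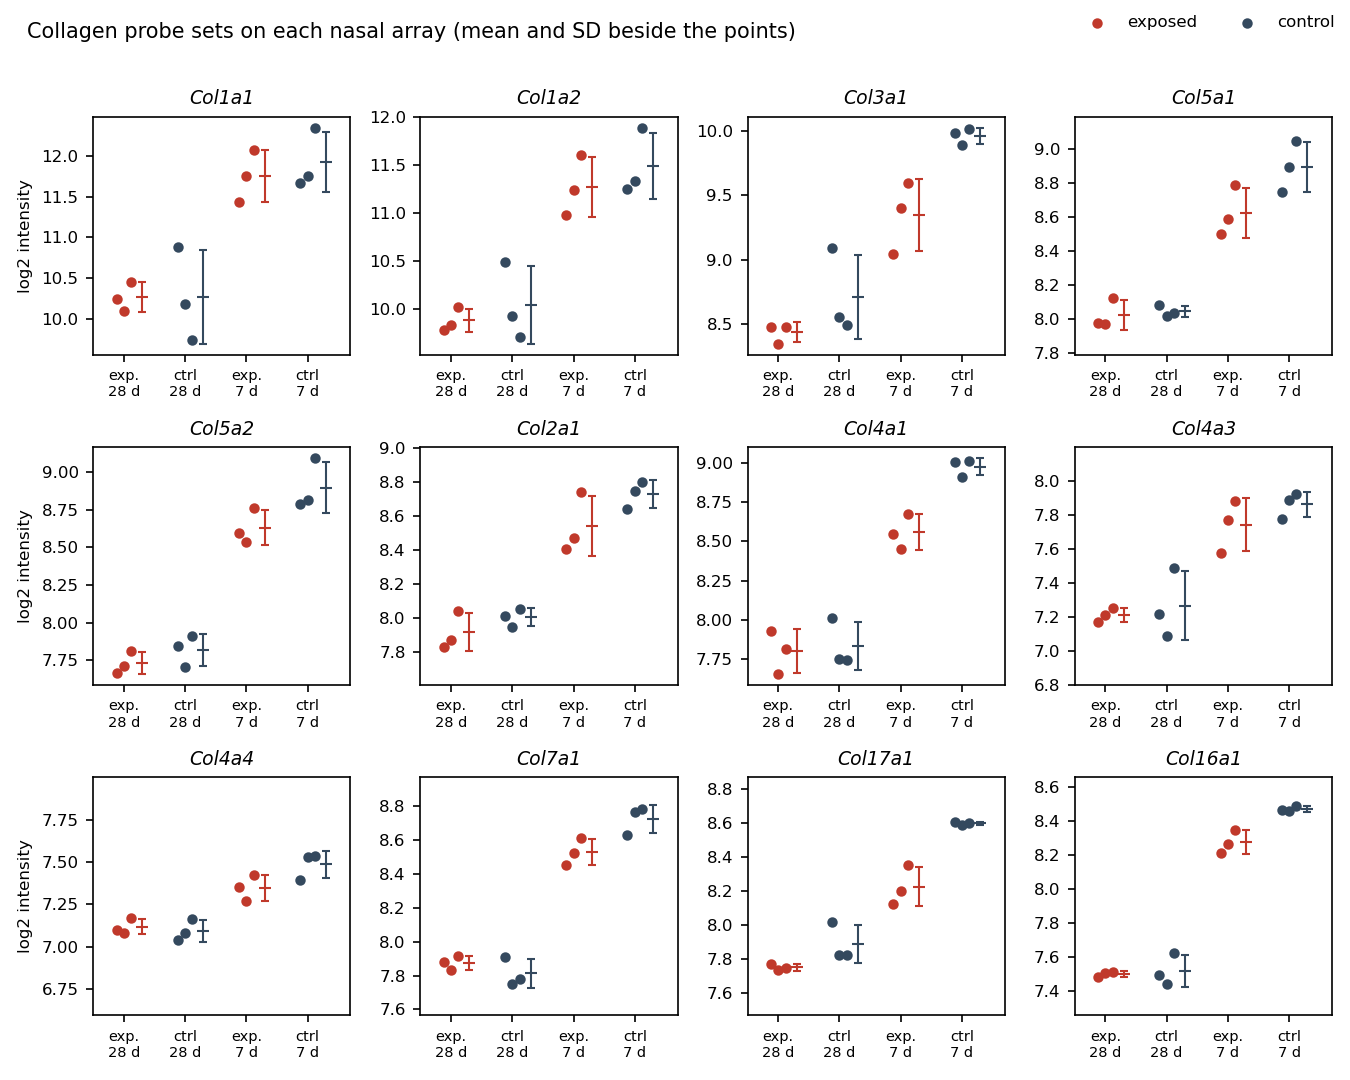
Points are the deposited intensities on a log2 axis for 12 collagens on each nasal array, exposed left of control within 28 days and then within 7 days, with the group mean and SD beside them. The axes differ between panels. At 7 days exposed arrays lie wholly below control arrays for Col3a1, Col4a1, Col17a1, Col5a2, Col7a1 and Col16a1. At 28 days they do so for Col3a1 and Col17a1. The 28 day arrays lie lower throughout, as the arrays of that day did as a whole.

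The change of the exposure difference between days was tested as an interaction, 28 day difference minus 7 day difference, in the fit of all 12 nasal arrays. None of the 25 collagens passed, where 0.1% of all probe sets did, so the data do not show that any collagen responded differently at the 2 days. Of the members 3 lay below 0, against 42.4% of all probe sets, and 22 above, with a median of 0.16 against 0.05 over all probe sets. Col4a1 had the largest value, 0.38 ± 0.14 (limma, adjusted p = 0.327). Without control replicate 1 of 28 days it was 0.47 ± 0.13 and passed (limma, adjusted p = 0.0452), as the only member to do so, where 6.23% of all probe sets passed as higher. Col3a1 had 0.34 ± 0.23, Col7a1 0.26 ± 0.11 and Col17a1 0.23 ± 0.11. Without that array Col3a1 had 0.53 ± 0.18 (limma, adjusted p = 0.0807), Col7a1 0.30 ± 0.11 (limma, adjusted p = 0.0817) and Col17a1 0.30 ± 0.10 (limma, adjusted p = 0.0827).

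Averaged over both days, 2 collagens were lower in exposed nose, where 8.28% of all probe sets passed as lower. Col17a1 differed by −0.26 ± 0.06 (limma, adjusted p = 0.0142) and Col3a1 by −0.45 ± 0.12 (limma, adjusted p = 0.0257). Col17a1 kept its call in all 12 fits that left out 1 array, and Col3a1 in 8 of 12. Col4a1 averaged −0.23 ± 0.07 and did not pass (limma, adjusted p = 0.0531). With the replicate number as a block it passed (limma, adjusted p = 0.0449) beside the other two, where 4.4% of all probe sets passed as lower. Col3a1 and Col17a1 were also the 2 collagens that passed as lower without control replicate 1 of 28 days, against 8.76% of all probe sets.

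The type I and type III chains had the widest spread among arrays of the same group, in part through 1 array. The pooled SD within groups of Col1a1 was 0.42 at 28 days and 0.35 at 7 days, that of Col1a2 was 0.30 and 0.33 in the same order, and that of Col3a1 was 0.24 and 0.20. These ranked 1, 2 and 3 among the 25 members on both days. Without control replicate 1 of 28 days, an omission chosen after seeing the data, the SDs at 28 days were 0.23 for Col1a1, 0.14 for Col1a2 and 0.07 for Col3a1. Col1a1 still ranked 1 there, and Col1a2 and Col3a1 ranked 4 and 19. Col1a1 and Col1a2, whose products join in the same type I molecule, lay on the same side of their group means on 11 of 12 nasal arrays. Their deviations on an array never differed by more than 0.19, though Col1a1 deviated by up to 0.61, on that same array. Without it they lay on the same side on 10 of 11 arrays, and Col1a1 deviated by at most 0.42. The counts for Col1a1 with Col3a1, Col4a1, Col17a1 and Col12a1 were 10, 9, 8 and 6 of 12 in that order. With Col12a1 the count was 8 of 11 without that array. The likeness to Col1a1 was thus not particular to Col1a2 by this count. The arrays share dissection and hybridization, and no test was made of this likeness.

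Genes that act on collagen were taken from lists of known function, which were chosen with earlier results of these data known. At 7 days 16.3% of all probe sets passed in either direction and 7.84% as lower, and each count is read against these shares. In all, 23 of 97 list entries fell and 3 rose. Without control replicate 1 of 7 days 9 fell and 0 rose, where 3.69% of all probe sets passed in either direction and 1.15% as lower. Without exposed replicate 1 the counts were 10 and 0, where 3.92% passed in either direction and 1.43% as lower. Of the genes named below, Loxl4, Tll1, Tgfbi, Itga1, Mmp2, Mmp3, Mmp14 and Tgfbr3 passed under both omissions, which were chosen after seeing the data. Of 21 genes of collagen folding and modification, 2 fell and 0 rose. They were P3h2, a prolyl 3-hydroxylase (−0.89 ± 0.28), and P3h4, of the same family (−0.26 ± 0.08). Of 11 genes of procollagen processing and cross-linking, 4 fell and 0 rose. Among them Loxl4 (−0.39 ± 0.07) and Loxl2 (−0.69 ± 0.15) are lysyl oxidase-like enzymes that cross-link fibrils, and Tll1 (−0.55 ± 0.11) is a protease that trims procollagen ends.

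Of 17 tested genes whose proteins bind collagen fibrils, 4 fell and 0 rose, with Tgfbi at −0.48 ± 0.08, Lum at −0.77 ± 0.17 and Dpt, dermatopontin, at −1.86 ± 0.40. Dpt had a mean of 8.55 in exposed nose and 10.41 in control nose. Of 10 partners of the basement membrane 3 fell and 0 rose, all of them laminin chains. Lamb3 and Lama3, chains of the laminin that sits under hemidesmosomes, differed by −0.84 ± 0.21 and −0.55 ± 0.16, and Lamc3 by −0.39 ± 0.08. All 10 had differences below 0, against 60.4% of all probe sets, with a median of −0.40 against −0.05 over all probe sets. Without exposed replicate 1 of 7 days 0 of the 10 passed, where 1.43% of all probe sets passed as lower.

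Of 9 collagen receptors 1 fell and 1 rose. They were Itga1 (−0.78 ± 0.13) and Itga2 (0.36 ± 0.08), which encode the alpha chains of the main collagen-binding integrins. Of 15 genes of collagen breakdown 4 fell and 2 rose. The matrix metalloproteinases Mmp2 (−0.68 ± 0.09), Mmp14 (−0.66 ± 0.09) and Mmp3 (−0.70 ± 0.12) were lower, and Mmp16 (1.51 ± 0.31) and the fibroblast activation protease Fap (0.83 ± 0.24) were higher. Of 14 genes of TGF-beta signalling, a pathway known to raise collagen transcription, 5 fell and 0 rose, among them the co-receptor Tgfbr3 (−0.52 ± 0.08), the binding protein Ltbp2 (−0.50 ± 0.10) and the ligand Tgfb3 (−0.70 ± 0.16).

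At 28 days 0 genes of these 7 lists passed. Those with the smallest unadjusted p were Dcn, decorin (−0.76, limma adjusted p = 0.0991), Aspn, asporin (−0.80, limma adjusted p = 0.107), and the proteases Mmp2 (−0.42) and Ctsl (−0.64). The median of the fibril-binding list was −0.30 and that of the breakdown list −0.32, the lowest of the 7, against 0.01 over all probe sets. The medians of the folding, processing, basement membrane, receptor and TGF-beta lists were −0.07, −0.07, −0.01, −0.05 and 0.04 in that order. The fibrillar collagens had a median of −0.02, near those of these latter lists. In the fit without control replicate 1, Dcn (−0.90 ± 0.13, limma adjusted p = 0.00939), Aspn (−0.99 ± 0.15, limma adjusted p = 0.0113) and Ctsl (−0.80 ± 0.13, limma adjusted p = 0.013) passed as lower, and Mmp2 (−0.38 ± 0.10, limma adjusted p = 0.0546) did not. These were 3 of 97 entries, against 4.93% of all probe sets in either direction, and the medians of the fibril-binding and breakdown lists were then −0.29 and −0.26.

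Markers of other cell types moved on the same arrays at 7 days. The mean log2 intensity of 14 endothelial markers was 8.48 to 8.84 in exposed nose, against 9.26 to 9.54 in control nose, and 12 of the 14 fell, Pecam1 by 0.97. The mean of the fibroblast markers was 9.33 to 9.54 in exposed nose, against 9.75 to 9.91 in control nose, and 7 of 14 tested fell. Exposed and control ranges did not overlap for either list, nor for the smooth muscle, leukocyte, cartilage and epithelial lists that follow. The list means were 9.69 to 9.85 in exposed nose, against 10.03 to 10.26 in control nose, for the smooth muscle and pericyte markers, and 7.88 to 8.02 in exposed nose, against 8.29 to 8.50 in control nose, for the leukocyte markers. They were 7.89 to 8.11 in exposed nose, against 8.24 to 8.54 in control nose, for the cartilage markers, and 10.34 to 10.95 in exposed nose, against 11.14 to 11.24 in control nose, for the epithelial markers. The bone markers overlapped, at 8.64 to 9.16 in exposed nose, against 8.62 to 9.34 in control nose. Of the smooth muscle and pericyte markers 5 of 11 fell, of the leukocyte markers 9 of 13, and of the epithelial markers 2 of 13, Elf3 and Tp63. Of the cartilage markers 3 of 10 fell, and of the bone markers 0 of 9. The mean of 13 olfactory neuron markers was 11.28 to 11.68 in exposed nose, against 8.88 to 10.18 in control nose, and 7 rose. The calls without control replicate 1 were 4 endothelial, 1 fibroblast and 4 leukocyte markers lower and 2 olfactory markers higher, and without exposed replicate 1 they were 5, 2, 4 and 2 in that order. Under either omission 2 smooth muscle and pericyte markers passed as lower, and 0 cartilage and 0 epithelial markers passed. Over all probe sets 7.84% passed as lower with all arrays, 1.15% without that control array and 1.43% without that exposed array. In either direction the shares were 16.3%, 3.69% and 3.92% in that order. At 28 days the fibroblast means were 8.56 to 8.59 in exposed nose, against 8.79 to 8.87 in control nose. The leukocyte means were 7.09 to 7.12 against 7.32 to 7.42, and the cartilage means 7.21 to 7.30 against 7.48 to 7.71. The olfactory means were 9.79 to 10.14 against 7.43 to 9.73. The endothelial, smooth muscle, epithelial and bone ranges overlapped at 28 days, and no marker of these lists passed. Without control replicate 1 of 28 days, 1 fibroblast and 2 leukocyte markers passed as lower at 28 days, where 4.93% of all probe sets passed in either direction. The lists share genes with each other and with those above, such as Dpt and Lum. The part of these cell types in the falls of Col3a1, Col4a1 and Col17a1 was not tested.

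**Figure D4:**
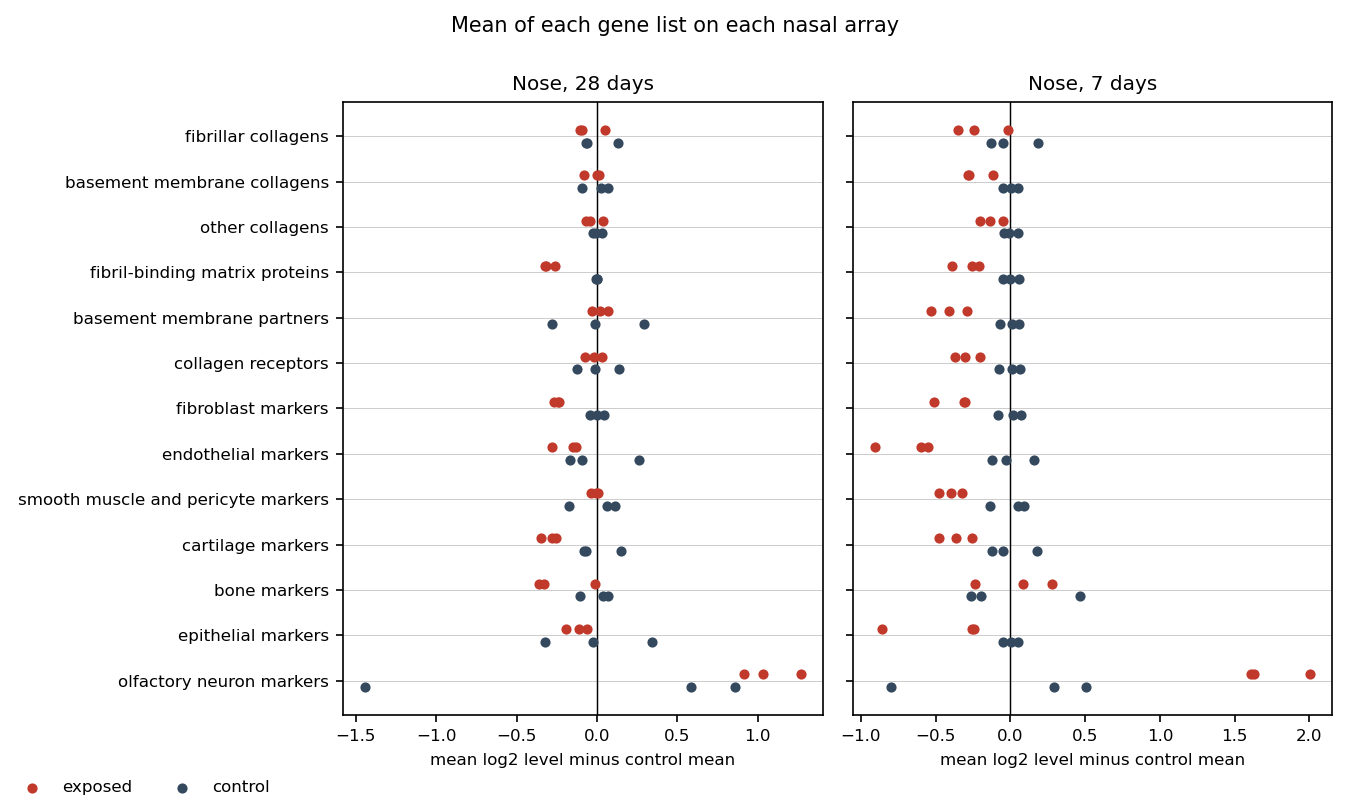
Each point is the mean log2 intensity of 1 gene list on 1 nasal array, given as its distance from the control mean of that day, at 28 days (left) and 7 days (right), with exposed arrays above control arrays in each row. At 7 days the exposed arrays lie below control for the endothelial and fibroblast markers and above for the olfactory markers, while the collagen classes shift less than the endothelial markers. At 28 days the exposed arrays also lie below control for the fibroblast and cartilage markers and above for the olfactory markers.

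In blood none of the 25 collagens passed at 7 days, where 0.475% of all probe sets did, and none at 28 days, where 5.27% did. None had an unadjusted p under 0.05 on either day, against 15.1% of all probe sets at 7 days and 17.9% at 28 days. At 7 days 4 of 25 differences lay below 0, against 38% of all probe sets, and 21 above, with a median of 0.06 against 0.04 over all probe sets, and the range was −0.13 to 0.28. At 28 days 12 lay below 0, against 55.8% of all probe sets, and 13 above, with a median of 0.01 and a range of −0.14 to 0.12. The interaction of exposure and day in blood gave 0 calls among the collagens and over all probe sets (0%), with 0 collagens at an unadjusted p under 0.05, against 11.5% of all probe sets.

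The 3 genes that fell in the nose did not pass in blood. Col3a1 had 7.21, 7.17 and 7.12 in exposed blood at 7 days, against 7.09, 7.06 and 7.15 in control blood. Col4a1 had 7.32, 7.28 and 7.22 in exposed blood, against 7.33, 7.15 and 7.34 in control blood. Col17a1 had 7.52, 7.44 and 7.43 in exposed blood, against 7.38, 7.32 and 7.40 in control blood. The groups overlapped for Col3a1 and Col4a1, and for Col17a1 the exposed arrays lay above the controls. At 28 days Col3a1 had 6.91, 7.16 and 6.91 in exposed blood, against 7.19, 7.18 and 7.00 in control blood. Col4a1 had 6.83, 7.07 and 6.87 in exposed blood, against 6.94, 6.79 and 6.86 in control blood. Col17a1 had 6.96, 7.06 and 6.98 in exposed blood, against 7.19, 7.02 and 6.87 in control blood. All 3 overlapped.

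The nasal exposure difference minus the blood exposure difference was tested over all 24 arrays. At 7 days 3 of 25 collagens were lower, against 5.65% of all probe sets. They were Col3a1 (−0.69 ± 0.19, limma adjusted p = 0.0251), Col17a1 (−0.47 ± 0.12, limma adjusted p = 0.0145) and Col4a1 (−0.42 ± 0.13, limma adjusted p = 0.0486). Col17a1 kept its call in 11 of 12 fits that left out 1 array, Col3a1 in 6 and Col4a1 in 1. Without exposed replicate 1 of nose none of the 3 passed. Col4a1 also lost its call after quantile normalization (limma, adjusted p = 0.0721) and after median centring. At 28 days none of the 25 collagens passed, where 5.1% of all probe sets did, and 0 had an unadjusted p under 0.05, against 21.2% of all probe sets. Again 0 passed without control replicate 1 of nose at 28 days, where 12.8% of all probe sets did.

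Between the days, the unexposed nasal arrays were compared at 28 against 7 days. As deposited, all 25 collagens were lower at 28 days, with differences of −1.66 to −0.39 on the log2 scale, and so were 90.4% of all probe sets, whose median was −0.99. The range was −1.96 to −0.36 without control replicate 1 of 28 days, all 25 still passed as lower, and so did 88.1% of all probe sets. The scale of the arrays and the day cannot be told apart in these values. After quantile normalization 6 collagens passed, all as higher at 28 days (Col5a3, Col17a1, Col9a1, Col4a4, Col9a2 and Col11a2), where 14.4% of all probe sets did. After median centring 10 passed. Of these, Col1a1, Col8a1, Col14a1 and Col23a1 were lower, where 25.5% of all probe sets were, and 6 were higher, where 15.9% were. Col1a1 differed by −0.60 after quantile normalization (limma, adjusted p = 0.113) and by −0.77 after median centring (limma, adjusted p = 0.0487). Without control replicate 1 of 28 days, an omission combined with the scalings after seeing the data, Col1a1 differed by −0.88 after quantile normalization (limma, adjusted p = 0.0152) and by −1.10 after median centring (limma, adjusted p = 0.00367). After quantile normalization 9 collagens then passed, Col1a1 and Col8a1 as lower, where 24.7% of all probe sets were, and 7 as higher, where 21.4% were. After median centring 12 passed, 7 as lower, where 34.7% of all probe sets were, and 5 as higher, where 19.8% were. With all arrays, Col4a4, Col9a1, Col9a2 and Col11a2 passed as higher at 28 days under both scalings. Without control replicate 1 of 28 days Col10a1 did so as well. All of these were near the blood level in the tissue comparison. Col1a1 and Col8a1 passed as lower under both scalings only without that array.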

How the data were processed

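The authors deposited 1 normalised intensity per probe set and array, on a linear scale. Partek is named, without a version, in the submitters' processing notes, and neither background correction nor normalization is described in the sources used here. The log2 of each deposited intensity (29214 probe sets, 24 arrays) was taken, without a pseudocount or further scaling. Groups came from the sample titles, and genes from the platform's table, in which 15310 probe sets carried 1 symbol. Probe sets with a tissue mean at or above percentile 25 were kept (21910 per tissue, 20096 in both), and all 25 collagens passed.

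In R 4.3.3, limma 3.58.1 (lmFit, contrasts.fit, eBayes) took the 12 arrays of a tissue, or all 24 for tissue contrasts. Tests were two-sided, with Benjamini-Hochberg adjustment across the probe sets kept and a threshold of 0.05. Values with ± are limma standard errors unless given as SD. The fit was tested on simulated data. Scaling, filter, prior, arrays fitted, threshold, probe sets per gene, replicate block and each array left out were varied. The spread within groups and the gene lists were also computed without the nasal arrays that stood apart, a choice made after seeing the data. Same-numbered exposed and control arrays had residual correlations of 0.154 to 0.247 in nose at 28 days, and of −0.348, −0.216 and 0.070 in blood at 28 days. No label says that the numbers pair arrays, and correlations this small do not settle it. The block changed no call in nose at 28 days.

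The members and lists were chosen with earlier results of these data known. Values on every array were given for collagens past the threshold, the 3 of each class with the smallest p at each day in nose, and Col1a1, Col1a2, Col2a1, Col3a1, Col4a1, Col7a1 and Col17a1. At most 3 called genes per list and direction were named, or 2 with the smallest p. The collagens named in the nose and blood comparison, and Col12a1 and Col11a1, were chosen after their values were seen. Of the glia markers 1 of 8 tested rose at 7 days and 0 fell, of the platelet markers 1 of 4 rose, of the erythroid markers 3 of 5 fell, and of the skeletal muscle markers 1 of 9 fell. Over all probe sets 16.3% passed in either direction in nose at 7 days.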

Additional observations from a re-analysis of the deposited data

Results flagged for a closer look

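The exposure difference at 7 days differed between nose and blood for 3 collagens, by the interaction test in limma over all 24 arrays. The nasal minus the blood difference was −0.69 for Col3a1, −0.42 for Col4a1 and −0.47 for Col17a1 on the log2 scale, and 22 of the 25 collagens did not pass. Over all probe sets 5.65% passed as lower. With 1 array left out in turn, Col17a1 kept its call in 11 of 12 fits, Col3a1 in 6 and Col4a1 in 1. Col4a1 also lost its call after quantile normalization and after median centring. The part of cell composition in these differences was not tested.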

How the results depend on the processing

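In nose at 7 days the count of called collagens was 3, and it was 6 at an adjusted p under 0.1, 4 with only the arrays compared, 2 with the replicate block and 0 to 3 with 1 array left out. Over all probe sets 7.84% passed as lower in the main fit, 1.15% without control replicate 1 and 1.43% without exposed replicate 1. Shares for the other settings are not all given, so the counts in this section show only how calls depended on the setting. With the block Col3a1 missed the threshold (limma, adjusted p = 0.0512). Same-numbered arrays had residual correlations of −0.260 to −0.078 in nose at 7 days, and no label says that the numbers pair arrays. The block raised the count for the average over both days to 3, against 2 without it, by adding Col4a1, and changed no call in nose at 28 days. Counts with 1 array left out ran from 0 to 1 for the nasal interaction of day, 1 to 3 for the average over days and 0 to 3 for the nose minus blood difference at 7 days. That last count was 1 with the filter at the median, where 13 collagens were tested. The called members missing from it did not pass that filter and so were not retested. Col4a1 lost its call in the nose minus blood difference at 7 days with the replicate block (limma, adjusted p = 0.0572). The count for 28 against 7 day controls was 6 after quantile normalization and 10 after median centring, and 9 and 12 with control replicate 1 of 28 days left out as well, a combination chosen after seeing the data. Col1a1 turned to 0.0107 at 28 days after quantile normalization. With 1 array left out, Col1a1 ran from −0.3316 to 0.0417 at 7 days. At 28 days Col1a1 ran from −0.2640 to 0.3044, Col1a2 from −0.3297 to 0.0633, Col4a1 from −0.1000 to 0.0532, Col4a3 from −0.1429 to 0.0557 and Col4a4 from −0.0069 to 0.0568. The causes were not tested. Counts at 28 days in nose, and in blood at both days, stayed at 0 under the settings run. Precision is limited by 3 arrays per group, and detection over background was not measured.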
